A study of Mus musculus with 64 samples.

Results

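The 34 genes described here encode the receptors, chemokines and adhesion molecules by which regulatory T (Treg) cells move between blood, lymphoid organs and tissues. They were taken by gene name from 55809 genes counted in each of 64 mouse libraries, and all 34 names were found. They comprise 9 chemokine receptors (Ccr2, Ccr3, Ccr4, Ccr7, Ccr8, Ccr10, Cxcr4, Cxcr6 and Cx3cr1), 4 other receptors of homing and egress (Gpr15, Gpr183, S1pr1 and S1pr4), 4 chemokines (Xcl1, Ccl3, Ccl4 and Ccl5), the transcription factors Klf2 and Klf3, the P-selectin ligand Selplg and the hyaluronan receptor Cd44, 7 integrin alpha chains (Itgae, Itga1, Itga2, Itga4, Itga6, Itgal and Itgav), 4 integrin beta chains (Itgb1, Itgb2, Itgb3 and Itgb7), and the integrin ligands Icam1 and Icam2. The rule that picks them uses gene names and no threshold on a value, but the list was chosen with earlier results of these data known.

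The study asked how the transcriptome of Treg cells depends on the transcription factor Foxp3 when the protein is supplied or removed at different times. In the first experiment, CD4 T cells of female mice carried on one X chromosome a Foxp3 allele with a loxP-flanked Thy1.1-STOP cassette and a GFP reporter. These cells transcribe the locus but make no Foxp3 protein until Cre removes the cassette. Groups named plusFoxp3 also carried Cd4-CreERT2, and groups named minusFoxp3 did not. Both received a single dose of 4-hydroxytamoxifen, and resting and active cells were sorted from pooled spleen and lymph nodes 3, 7, 14 and 28 days later (2 libraries per group). At day 0 no tamoxifen was given, so that both day 0 groups lacked Foxp3 protein. Presence of Foxp3 and presence of Cre always went together after day 0 and cannot be told apart. Resting and active Treg cells of untreated mice with a Foxp3 GFP reporter were the Foxp3-sufficient reference (GFP Treg, 2 libraries each). Where they are compared with minusFoxp3 cells, Foxp3 protein, mouse line, Foxp3 allele and the reporter used for sorting differ together. These cannot be told apart.

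In the second experiment, adult female mice heterozygous for Foxp3AID, an allele of Foxp3 fused to an auxin-inducible degron, had either wild-type ROSA26 (WT) or ROSA26 with TIR1(F74G), the plant adaptor that sends the fusion protein for destruction. TIR1 stood behind a loxP-STOP-loxP cassette opened by the iCre made from the Foxp3 locus, and both genotypes received 5-ph-IAA daily for 7 days. ZsGreen+ Treg cells were sorted as CD73-negative cells of the thymus and as CD44hi (active) cells of secondary lymphoid organs (3 libraries per group). In an infant experiment, Treg cells of mice with the degron allele were compared in the same way after 5-ph-IAA (4 libraries titled TIR1 and 4 titled WT). The labels give no age or sex for the infant mice. By the study they were neonatal Foxp3AID/y males dosed daily from soon after birth. For their RNA the text of the study gives 7 days of degradation, as the labels do, while a figure legend gives a longer time. The sort into active and resting cells used the surface protein CD44, so that differences of Cd44 between these states follow from it.

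As background, naive-like and resting T cells circulate through lymph nodes. Ccr7 lets them in, S1pr1 lets them out, and Klf2 drives the transcription of S1pr1. Effector Treg cells exchange this set for receptors of inflamed or barrier tissue, among them Ccr2, Ccr4, Ccr8, Ccr10, Cxcr6 and Gpr15. Integrins are pairs of an alpha and a beta chain: Itgal with Itgb2 binds Icam1 and Icam2, Itgae with Itgb7 binds E-cadherin on epithelium, Itga4 with Itgb7 binds the gut vascular addressin, and Itgb1 pairs with Itga1 and Itga2 to bind collagen.

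The promoter windows of Ccr2, Icam1 and Ccr8 are shown because the transcripts of Ccr2 and Icam1 were higher, and that of Ccr8 lower, in some plusFoxp3 groups. They run from 250 bases before to 50 after the start that RefSeq gives, and were placed on GRCm39 by an exact and single match on their chromosome. Capitals mark CACCC on either strand (GGGTG on the other), the core letters of Krüppel-like factor motifs.
Ccr2, chr9:123901970-123902269, plus strand: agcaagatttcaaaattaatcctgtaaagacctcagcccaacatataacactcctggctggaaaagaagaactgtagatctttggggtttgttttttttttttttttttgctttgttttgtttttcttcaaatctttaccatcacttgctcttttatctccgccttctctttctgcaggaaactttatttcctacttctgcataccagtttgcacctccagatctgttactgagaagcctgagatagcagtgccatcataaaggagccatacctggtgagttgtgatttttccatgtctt
Icam1, chr9:20926986-20927285, plus strand: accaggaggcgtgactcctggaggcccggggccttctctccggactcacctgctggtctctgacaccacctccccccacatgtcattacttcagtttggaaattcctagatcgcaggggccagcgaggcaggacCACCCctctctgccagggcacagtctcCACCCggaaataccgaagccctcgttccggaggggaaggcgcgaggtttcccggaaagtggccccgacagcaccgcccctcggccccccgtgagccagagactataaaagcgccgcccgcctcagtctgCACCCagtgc
Ccr8, chr9:119920949-119921248, plus strand: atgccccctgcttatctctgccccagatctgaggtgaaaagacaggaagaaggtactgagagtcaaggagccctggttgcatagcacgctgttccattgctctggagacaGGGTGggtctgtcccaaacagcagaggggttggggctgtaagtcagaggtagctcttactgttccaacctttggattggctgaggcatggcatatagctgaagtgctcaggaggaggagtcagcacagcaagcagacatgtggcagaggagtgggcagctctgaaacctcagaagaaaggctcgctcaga
The Icam1 window held 3 matches, the Ccr8 window 1 and the Ccr2 window 0. A window was on hand for 22 of the 34 genes, 17 of which held CACCC, against 57.5% of all 32851 windows. The forkhead letters GTAAACA, searched on both strands, were in 0 of the 22 windows and in 3.65% of all windows. Such matches describe letters, not bound sites. In the gene annotation of the count tables (GRCm39), Ccr2 spans 123901987 to 123913594 and Icam1 spans 20927281 to 20940113, both on chromosome 9. Most of the Ccr2 window thus lies inside the annotated gene, which starts further upstream there than in RefSeq. Itgae (72981409 to 73038272) and Ccr7 (99035022 to 99045903) lie on chromosome 11. Counting did not use strand, and 34.7% of the exonic bases of Ccl3, 18.7% of Xcl1, 12.5% of Gpr15, 11.7% of Icam1 and 8.04% of Itga4 are shared with another annotated gene.

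Library totals were 27753211 to 34029692 counts in the adult degron experiment, 33704114 to 55801009 in infants, 35097257 to 57049049 in resting and 40813000 to 57419138 in active cells of the reversible-allele experiment. Levels below are counts divided by the library total and multiplied by 1000000 (CPM), and differences are log2 fold changes ± SE with p-values adjusted over all genes tested (edgeR quasi-likelihood test, Benjamini-Hochberg, threshold 0.05). Genes entered a test with a mean count of at least 10. Where libraries of compared groups are said not to overlap, the share of all genes without overlap was not counted. Foxp3 itself lay between 44.3 and 81.5 CPM in minusFoxp3 cells, 50.7 and 80.7 CPM in plusFoxp3 cells before tamoxifen, 426 and 615 CPM in plusFoxp3 cells from day 3 on, and 635 and 817 CPM in GFP Treg cells. The degron acts on protein, but the study also reports slightly less Foxp3 transcript in resting Treg cells after degradation. The transcript was not used here to check the degron labels. All 12 adult degron tables are attached to the sample of the other genotype than the library name in their header, and groups follow that library name here. In the infant set, title and genotype field disagree for all 8 samples, so that "titled TIR1" and "titled WT" are used, and titled WT replicate 4 stands apart from the other 3. The study describes the replicates of the adult degron and reversible-allele groups as biologically independent. For the infant set the sources used here do not say so, and p-values there measure the spread between libraries. Sorted RNA does not separate fewer expressing cells from less RNA per cell. Of 5 marker genes of double-positive thymocytes, Rag1, Rag2 and Ptcra were at 0 in every thymic WT library. The others, Dntt and Cd8b1, were not, and the list summed to 50.9 to 59.0 CPM there. Summed markers of B cells were 10.2 to 57.8 CPM and of myeloid cells 0.958 to 28.9 CPM over all libraries.

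Expressed per kilobase of exon, which allows genes to be compared, the integrin chain Itgb7 led the set in active cells at 709 CPM per kb (mean of the untreated minusFoxp3 libraries), followed by Cxcr6 at 341, Selplg at 333 and Itgb2 at 311. In resting untreated minusFoxp3 cells the leading members were Klf2 at 619, Ccr7 at 597 and Itgb7 at 415 CPM per kb. Thymic Treg cells (WT) were led by Ccr7 at 1139, Klf2 at 806 and S1pr1 at 453 CPM per kb. In active GFP Treg cells Itgae, at 136 CPM per kb, came next after Itgb7 (513), Itgb2, Selplg and Klf2.

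Resting cells were followed first, to see which homing genes differed between plusFoxp3 and minusFoxp3 cells and from which day on. The epithelial integrin chain Itgae was higher in both plusFoxp3 libraries than in both minusFoxp3 libraries on every day, day 0 included, and its difference passed the test at days 14 and 28. Ccr2, Ccr10 and Ccl5 were also higher by day 28, and the lymph node receptors Ccr7 and S1pr1 were lower. Before tamoxifen, 0 of 34 members were called by edgeR, with 0.00487% of 20520 genes called in all. At an unadjusted p under 0.05 there were 4 members, against 10.8% of all genes, and DESeq2 called 0. The 3 lowest p-values belonged to Icam1 (0.68 ± 0.22, adjusted p = 0.428), S1pr4 (0.66 ± 0.23, 0.428) and Itgae (1.80 ± 0.65, 0.428). Without plusFoxp3 replicate 2, 3 members were called.

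Days 3 and 7 likewise gave 0 called members, against 0.0487% and 0.0585% of all genes. Unadjusted p-values under 0.05 were found for 4 members at day 3 and 11 at day 7, against 11% and 5.71% of all genes, and DESeq2 called 0 and 2 members (Ccr2 and Itgae). At day 3 the lowest p-values were those of Itgae (2.24 ± 0.62, adjusted p = 0.248), Ccr2 (2.31 ± 0.79, 0.359) and Ccr10 (2.94 ± 1.05, 0.376). At day 7 they were those of Itgae (2.82 ± 0.63, 0.136), Ccr2 (3.72 ± 0.84, 0.139) and Ccr7 (-0.50 ± 0.15, 0.443).

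At day 14, 2 of 34 members were called, both higher, while 0.268% of all genes were. Itgae was 0.562 and 4.25 CPM in the minusFoxp3 libraries and 53.3 and 38.1 CPM in the plusFoxp3 libraries. The groups lay far apart, with a difference of 4.27 ± 0.67 (adjusted p = 0.00929). Ccr2, the receptor for monocyte chemoattractant proteins, was 2.31 and 1.85 CPM without and 52.4 and 40.1 CPM with Foxp3, a difference of 4.51 ± 0.88 (adjusted p = 0.0395). Leaving out any 1 of the 4 libraries ended the Ccr2 call, and Itgae was not called without plusFoxp3 replicate 1, which leaves 0 called members. Leaving out minusFoxp3 replicate 1, minusFoxp3 replicate 2 or plusFoxp3 replicate 2 left 1, and a fit of the 4 libraries alone called 1.

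At day 28, 6 of 34 members were called, 4 higher and 2 lower, against 0.945% of all genes. Itgae was 5.00 and 1.45 CPM in minusFoxp3 and 77.5 and 58.9 CPM in plusFoxp3 cells (4.41 ± 0.67, adjusted p = 0.00397). Ccr2 was 6.40 and 1.96 CPM against 120.0 and 25.2 CPM (4.12 ± 0.85, adjusted p = 0.0280), and plusFoxp3 replicate 1 was the higher of its pair by a wide margin. The skin-homing receptor Ccr10 was 0.123 and 0.139 CPM without and 11.1 and 5.23 CPM with Foxp3 (5.96 ± 1.04, adjusted p = 0.0107). Ccl5, an inflammatory chemokine, was 0.228 and 0.185 CPM against 6.06 and 3.39 CPM (4.50 ± 0.91, adjusted p = 0.0252). In these 4 genes the minusFoxp3 libraries sat near the bottom of the measured range and no libraries of the groups overlapped.

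The lymph node genes moved the other way at day 28 and by less. Ccr7 was 1334 and 1143 CPM in minusFoxp3 and 761 and 784 CPM in plusFoxp3 cells (-0.66 ± 0.15, adjusted p = 0.0451). S1pr1, the egress receptor, was 1063 and 966 CPM against 593 and 690.1 CPM (-0.64 ± 0.13, adjusted p = 0.0224). Klf2 was 1263 and 2105 CPM against 979 and 1146 CPM, without overlap of the libraries, and did not pass (-0.65 ± 0.35, adjusted p = 0.651). The median difference of the 34 members was 0.15, 0.070, 0.11, 0.14 and 0.17 at days 0, 3, 7, 14 and 28, beside -0.00028, -0.048, -0.0034, -0.0036 and 0.0056 over all genes. The count fell to 1 without minusFoxp3 replicate 1, 0 without minusFoxp3 replicate 2, 2 without plusFoxp3 replicate 1 and 5 without plusFoxp3 replicate 2. Of the single libraries, minusFoxp3 replicate 2 was the one without which Itgae was lost. A fit of the 4 libraries alone called 2 and ended the calls of Itgae, Ccr2, Ccr7 and S1pr1. Summed myeloid markers were 3.05 to 11.7 CPM in minusFoxp3 and 6.31 to 8.41 CPM in plusFoxp3 libraries of that day, and B cell markers 20.6 to 28.5 and 30.6 to 39.7 CPM. CD8 T and NK cell markers summed to 23.3 to 25.7 and 27.6 to 29.3 CPM. Their part in the differences was not tested.

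Among 65 further genes of trafficking (other chemokine receptors, chemokines, integrins, selectin ligand enzymes, egress receptors and integrin activators), 49 could be tested in resting cells. Of these, 0 passed at days 0, 3 and 7. Cxcr5, the receptor for B cell follicles, was higher at day 14 (2.14 ± 0.39, adjusted p = 0.0274), and the integrin chain Itga9 was lower at day 28 (-2.71 ± 0.47, adjusted p = 0.0101).

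**Figure D1:**
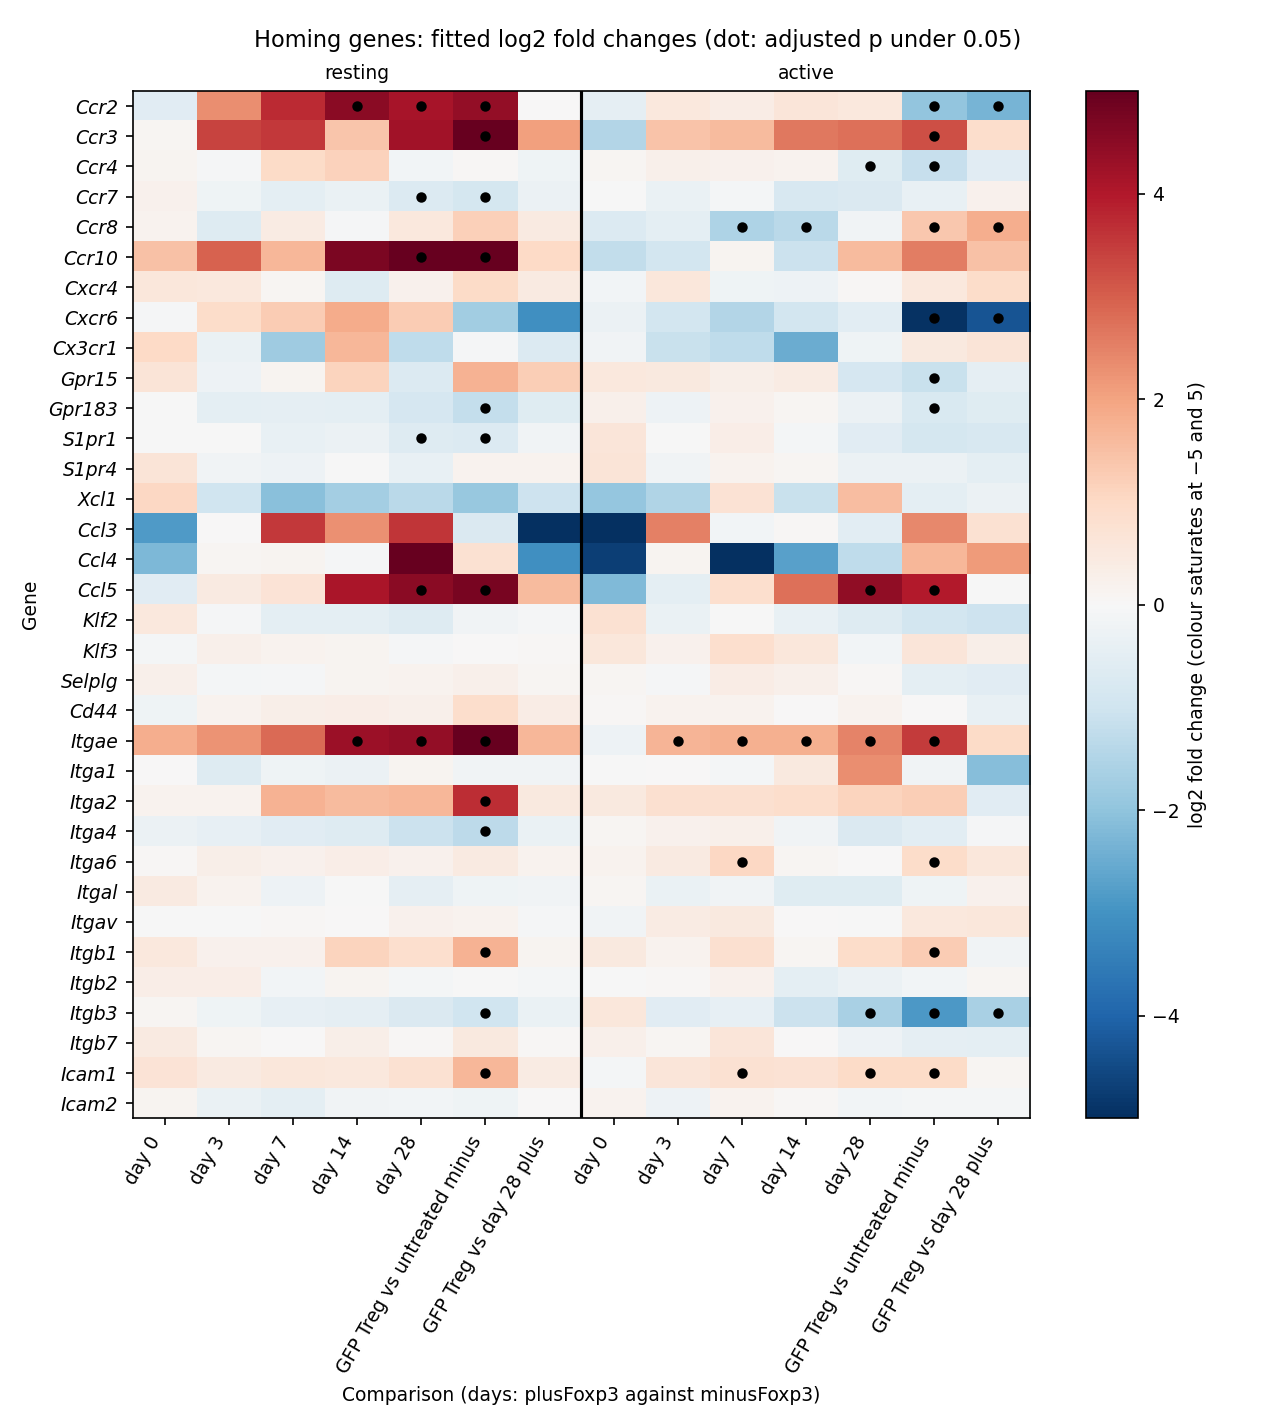
Colours give the log2 fold change of the 34 genes (rows, by role) in 14 comparisons of the reversible-allele experiment (columns: plusFoxp3 against minusFoxp3 by day, and GFP Treg cells against untreated minusFoxp3 and day 28 plusFoxp3 cells, in resting and active cells), with colour limits at -5 and 5 and dots where the adjusted p is under 0.05. Itgae is dotted at days 14 and 28 in resting cells and from day 3 on in active cells, and the GFP Treg columns against untreated minusFoxp3 cells hold 13 dots each.

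Resting GFP Treg cells, the Foxp3-sufficient reference, were set against the untreated minusFoxp3 cells, and 13 of 34 members were called. These were 8 higher, against 1.7% of all genes higher, and 5 lower, against 1.21% lower (2.91% called in all). The median of the members was 0.18 beside -0.012 over all genes. This comparison shares the untreated minusFoxp3 libraries with the day 0 comparison, so the values stand side by side without a test between them.

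Of the 8 higher members, 5 were receptors, a chemokine and an integrin chain of tissue homing. Itgae was 1.22 and 1.60 CPM in minusFoxp3 and 199 and 231 CPM in GFP Treg cells (7.27 ± 0.77, adjusted p = 5.38e-05). The eotaxin receptor Ccr3 was 0.0206 and 0.0216 CPM against 5.88 and 10.4 CPM (adjusted p = 0.00410), where the minusFoxp3 libraries held 2 counts together. The ratio of the pooled counts per library total was 382 with a 95% counting interval of 106 to 3163. Itgae and Ccr3 had the largest fitted differences of the 34 genes in this comparison. Ccr10 was 0.556 and 0.108 CPM against 6.56 and 26.0 CPM (5.61 ± 0.98, adjusted p = 0.00342). Ccr2 rose from 2.60 and 4.25 CPM to 48.2 and 96.4 CPM (4.41 ± 0.86, adjusted p = 0.00838). Ccl5 was 0.618 and 0.453 CPM against 19.3 and 8.97 CPM (4.74 ± 0.88, adjusted p = 0.00563). In each case both GFP Treg libraries exceeded both minusFoxp3 libraries.

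The collagen-binding pair was higher as well. Its alpha chain Itga2 was 1.01 and 0.237 CPM against 5.72 and 10.2 CPM (3.68 ± 0.68, adjusted p = 0.00550), and the beta chain Itgb1 was 97.7 and 130.4 CPM against 427 and 336 CPM (1.75 ± 0.32, adjusted p = 0.00484). Icam1, a ligand of the leukocyte integrin formed by Itgal and Itgb2, was 33.5 and 46.2 CPM against 135 and 112 CPM (1.64 ± 0.22, adjusted p = 4.01e-04). Neither chain of that integrin was called, with -0.23 for Itgal and -0.025 for Itgb2.

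Of the 5 lower members, 3 guide cells within lymphoid organs. Ccr7 was 1219 and 1143 CPM in minusFoxp3 and 638 and 625 CPM in GFP Treg cells (-0.89 ± 0.15, adjusted p = 0.00268). S1pr1 was 921 and 918 CPM against 553 and 587 CPM (-0.68 ± 0.13, adjusted p = 0.00644). Gpr183, an oxysterol receptor that positions cells at follicle borders, was 173 and 140.5 CPM against 73.9 and 61.2 CPM (-1.20 ± 0.25, adjusted p = 0.0116). The other two are integrin chains. Itga4 was 256 and 324 CPM against 113 and 121 CPM (-1.30 ± 0.27, adjusted p = 0.0127), and Itgb3 was 57.0 and 58.2 CPM against 20.7 and 36.2 CPM (-1.01 ± 0.25, adjusted p = 0.0416). Ccr7, Itgae and Icam1 were called whichever library was left out. The count of called members was 7 without minusFoxp3 replicate 1, 6 without minusFoxp3 replicate 2, 8 without GFP Treg replicate 1 and 10 without GFP Treg replicate 2, and a fit of the 4 libraries alone called 7. B cell markers summed to 33.99 to 48.34 CPM in GFP Treg and 21.3 to 23.6 CPM in minusFoxp3 libraries, and CD8 T and NK cell markers to 25.7 to 26.95 and 27.5 to 35.4 CPM. The part of these cells in the results was not tested.

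From the 49 tested trafficking genes, 5 were higher and 3 lower. The chemokine receptor Cxcr3 (4.25 ± 0.81, adjusted p = 0.00678), the fucosyltransferase of selectin ligands Fut7 (3.20 ± 0.80, 0.0399) and Cxcr5 (2.72 ± 0.40, 8.66e-04) had the highest changes. Ccl20, the ligand of Ccr6 (-7.52 ± 1.00, adjusted p = 3.70e-04), the sialyltransferase St3gal6 (-1.78 ± 0.34, 0.00683) and the integrin activator Rasgrp2 (-1.18 ± 0.24, 0.0106) were the 3 lower ones.

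Set against day 28 plusFoxp3 cells in place of minusFoxp3 cells, resting GFP Treg cells gave 0 called members by edgeR, with 0.0341% of all genes called. There were 5 members at an unadjusted p under 0.05, against 3.96% of all genes, and 0 by DESeq2. Ccl3 had the lowest p (3.83 and 0.186 CPM in plusFoxp3 and 0.0548 and 0.0581 CPM in GFP Treg cells, -5.07 ± 1.39, adjusted p = 0.557), followed by Cxcr6 (-3.08 ± 1.00, 0.811) and Itgae (1.66 ± 0.58, 0.935). Itgae was 77.5 and 58.9 CPM in the day 28 plusFoxp3 libraries and 199 and 231 CPM in the GFP Treg libraries, so the groups did not overlap although the difference did not pass. This comparison shares the plusFoxp3 libraries with the day 28 comparison. The member median was 0.014 beside -0.0057 over all genes, and 0 of the 49 other trafficking genes passed.

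In active cells the same question had another starting point, since Ccr2, Cxcr6 and Itgae were already transcribed without Foxp3. Itgae was again the member called most often, from day 3 on. Ccr8 was lower at days 7 and 14, Icam1 was higher at days 7 and 28, and at day 28 Ccl5 was higher while Itgb3 and Ccr4 were lower. Before tamoxifen 0 of 34 members were called, with 0.00481% of 20776 genes, 6 members at an unadjusted p under 0.05 (4.58% of all genes) and 0 by DESeq2. The lowest p-values belonged to S1pr4 (0.63 ± 0.18, adjusted p = 0.999), Klf3 (0.58 ± 0.22, 0.999) and Gpr15 (0.54 ± 0.21, 0.999).

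At day 3 the 1 called member was Itgae, against 0.274% of all genes. It was 40.6 and 56.3 CPM in minusFoxp3 and 162 and 144 CPM in plusFoxp3 cells (1.71 ± 0.27, adjusted p = 0.00965). The call was lost, leaving 0, without minusFoxp3 replicate 1, plusFoxp3 replicate 1 or plusFoxp3 replicate 2, and also when the fit held no other libraries than the 4 compared. CD8 T and NK cell markers summed to 18.97 to 20.7 CPM in minusFoxp3 and 12.79 to 12.83 CPM in plusFoxp3 libraries, and their part in the difference was not tested.

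At day 7, 4 of 34 members were called, against 0.568% of all genes. Itgae was 87.0 and 119.8 CPM in minusFoxp3 and 372 and 315 CPM in plusFoxp3 cells (1.78 ± 0.27, adjusted p = 0.00472). The laminin receptor chain Itga6 was 61.6 and 109 CPM against 154 and 184 CPM (1.02 ± 0.22, adjusted p = 0.0488). Icam1 was 81.5 and 115 CPM against 166 and 161 CPM (0.78 ± 0.17, adjusted p = 0.0451). Ccr8, a chemokine receptor found on Treg cells of skin and tumours, ran against these with 114 and 69.1 CPM without and 31.7 and 29.6 CPM with Foxp3 (-1.53 ± 0.29, adjusted p = 0.0250). Before tamoxifen Ccr8 was already lower in the plusFoxp3 libraries (29.6 and 30.1 CPM) than in the minusFoxp3 libraries (44.6 and 52.4 CPM). Its plusFoxp3 values thus lay close together at days 0 and 7, while the minusFoxp3 values were higher at day 7. Without minusFoxp3 replicate 1 or plusFoxp3 replicate 1 no member was called, without plusFoxp3 replicate 2 there was 1 (Itgae), and without minusFoxp3 replicate 2 there were 8. A fit of the 4 libraries alone called 0, and scaling by RLE size factors called 2. Between minusFoxp3 and plusFoxp3 libraries, B cell markers summed to 10.2 to 13.97 against 19.6 to 23.5 CPM, and CD8 T and NK cell markers to 18.04 to 40.6 against 11.6 to 13.7 CPM. The part of these cells in the differences was not tested.

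At day 14, 2 of 34 members were called, against 0.732% of all genes. Itgae was 76.6 and 111 CPM in minusFoxp3 and 260.1 and 390.2 CPM in plusFoxp3 cells (1.80 ± 0.27, adjusted p = 0.00309). Ccr8 was 71.1 and 51.5 CPM against 23.1 and 25.2 CPM (-1.34 ± 0.29, adjusted p = 0.0434). Of these, 0 were called without minusFoxp3 replicate 1 or plusFoxp3 replicate 2, and Itgae alone without either of the other libraries (minusFoxp3 replicate 2, plusFoxp3 replicate 1). A fit of the 4 libraries alone called 4. CD8 T and NK cell markers summed to 14.3 to 19.5 CPM in minusFoxp3 and 13.5 to 14.2 CPM in plusFoxp3 libraries and endothelial markers to 75.8 to 86.9 and 65.7 to 69.7 CPM, and their part was not tested.

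At day 28, 5 of 34 members were called, 3 higher and 2 lower, against 1.85% of all genes. Itgae was 53.7 and 62.0 CPM in minusFoxp3 and 245 and 394 CPM in plusFoxp3 cells (2.48 ± 0.28, adjusted p = 1.04e-04). Ccl5 was 1.70 and 1.77 CPM against 55.4 and 19.2 CPM (4.44 ± 0.91, adjusted p = 0.0148), and Icam1 was 94.1 and 98.4 CPM against 212 and 163 CPM (0.97 ± 0.17, adjusted p = 0.00403). Both lower genes differed by less than Itgae and Ccl5 did. Itgb3, a partner of Itgav, was 102 and 72.4 CPM against 36.0 and 21.2 CPM (-1.60 ± 0.34, adjusted p = 0.0171). Ccr4, the receptor for Ccl17 and Ccl22, was 224 and 192 CPM against 126 and 149 CPM (-0.59 ± 0.15, adjusted p = 0.0491).

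Itgae kept its call at day 28 without any single library. The count of called members was 1 without minusFoxp3 replicate 1 and 4 without each of the others (minusFoxp3 replicate 2, plusFoxp3 replicate 1 and plusFoxp3 replicate 2), where other members were gained. Ccr4 was lost whichever library was left out. Ccl5 was lost without minusFoxp3 replicate 1, minusFoxp3 replicate 2 or plusFoxp3 replicate 1, Icam1 without minusFoxp3 replicate 1 or plusFoxp3 replicate 1, and Itgb3 without minusFoxp3 replicate 1 or plusFoxp3 replicate 2. A fit of the 4 libraries alone called 2 and ended the calls of Ccr4, Icam1 and Itgb3. From minusFoxp3 to plusFoxp3 libraries, myeloid markers summed to 18.6 to 22.7 against 9.45 to 14.8 CPM, B cell markers to 18.57 to 20.4 against 24.9 to 37.8 CPM, CD8 T and NK cell markers to 19.999 to 27.8 against 14.6 to 19.7 CPM and endothelial markers to 99.4 to 117 against 73.5 to 79.7 CPM. The groups did not overlap in any of these sums, and their part in the differences was not tested.

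The median of the members was 0.036, 0.082, 0.22, 0.038 and -0.14 at days 0, 3, 7, 14 and 28, beside 0.0081, -0.0056, -0.022, 0.027 and 0.027 over all genes. Cxcr6, the Cxcl16 receptor, varied widely within plusFoxp3 cells of day 28 (689 and 154 CPM) and did not pass (-0.54 ± 0.48, adjusted p = 0.811).

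Of the 65 other trafficking genes 56 could be tested in active cells. The count of calls was 0 at days 0 and 3, and 2 at each of days 7 and 14, both times Cxcr5 (3.09 ± 0.45, adjusted p = 0.00285 at day 7, and 2.13 ± 0.42, 0.0259 at day 14) and Cxcr3 (1.85 ± 0.39, 0.0413, and 2.48 ± 0.40, 0.00459). At day 28 there were 4 higher and 3 lower. Itgb8, the Itgav partner that activates latent TGF-beta (4.78 ± 0.63, adjusted p = 4.50e-04), Cxcr5 (3.89 ± 0.45, 1.43e-04) and Cxcr3 (3.12 ± 0.41, 3.95e-04) led the higher ones. The lower ones were St3gal6 (-2.17 ± 0.44, 0.0143), Ccl20 (-1.61 ± 0.38, 0.0396) and its receptor Ccr6 (-1.21 ± 0.23, 0.00824).

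**Figure D2:**
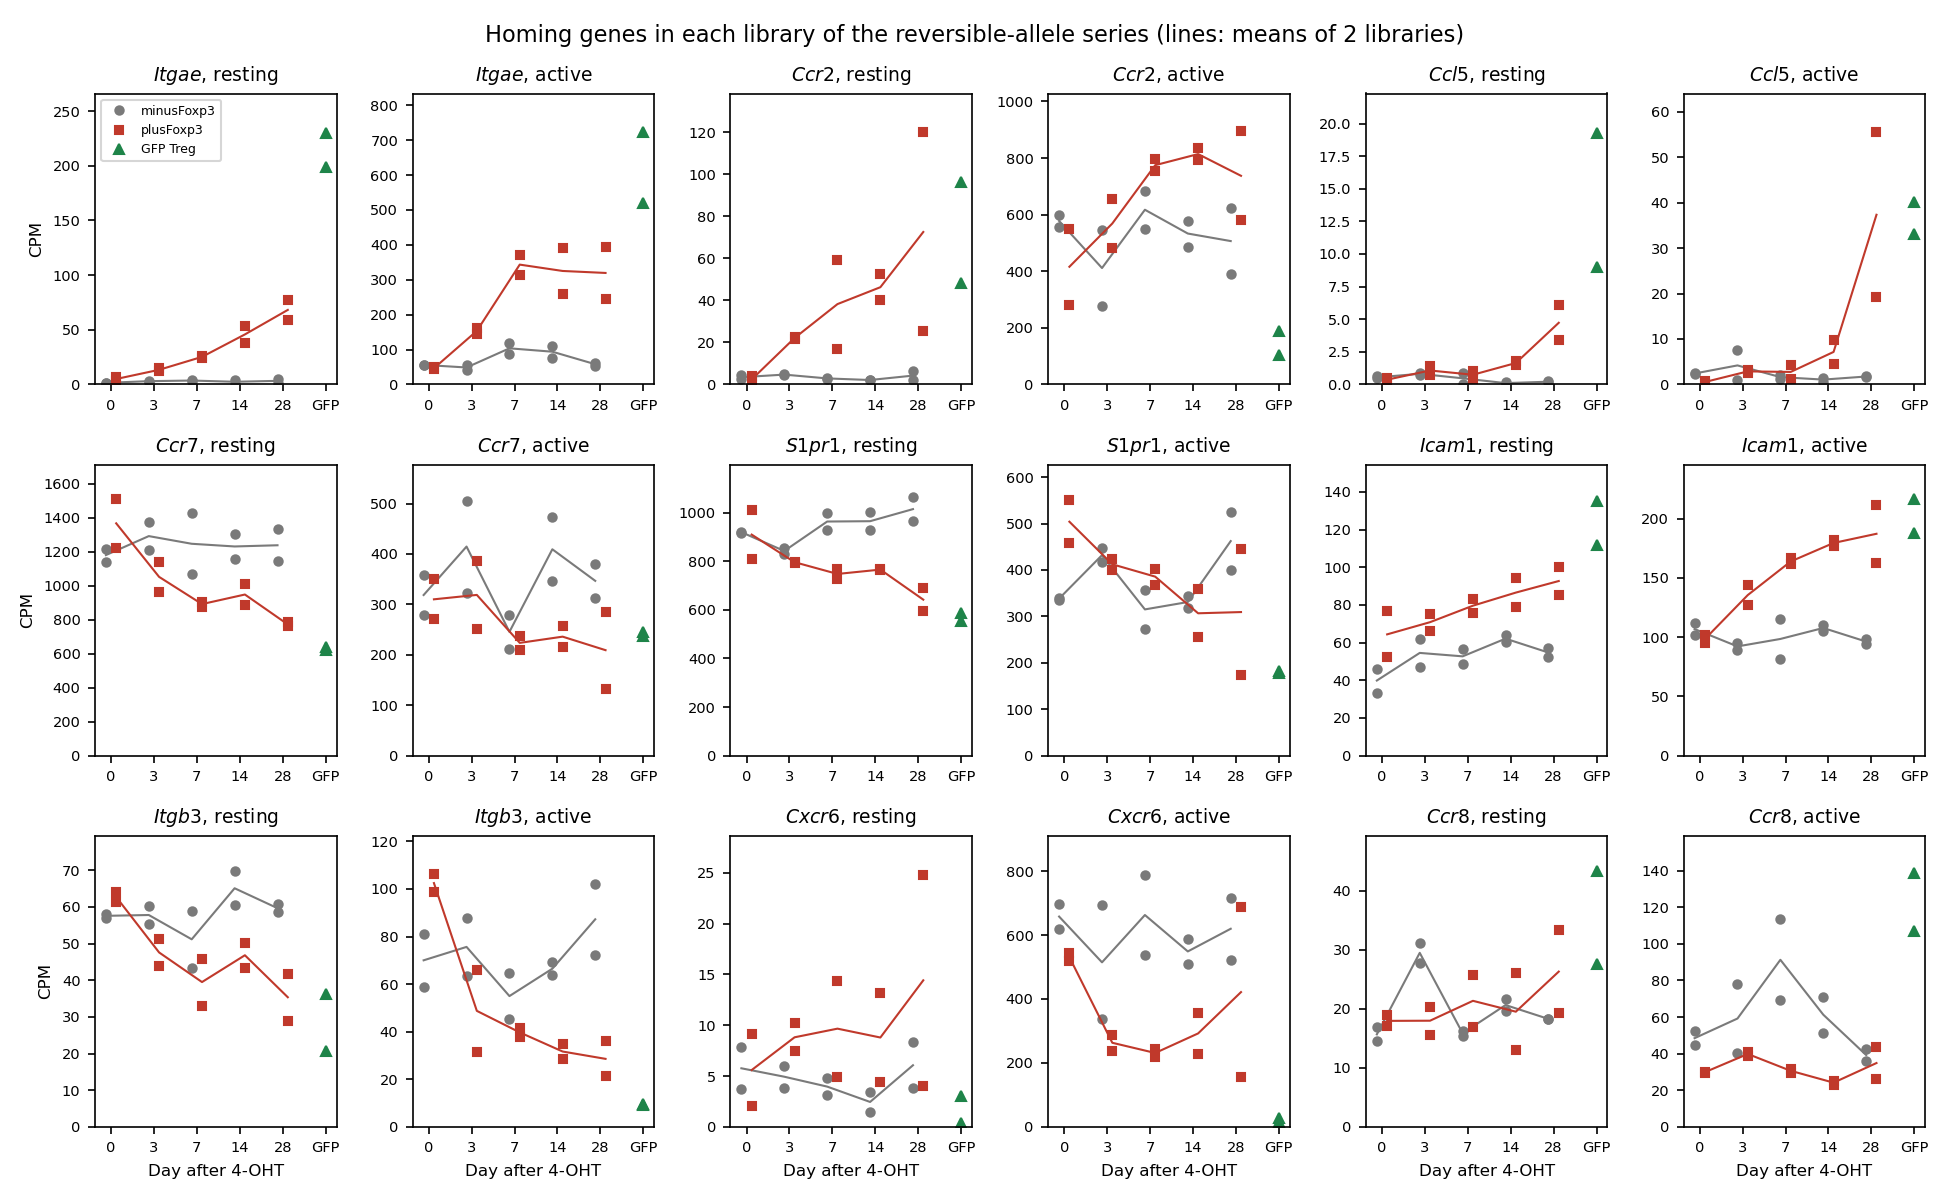
Each point is 1 library and shows the CPM of 1 of 9 genes (panels, separate for resting and active cells) against days after tamoxifen, with GFP Treg cells at the right and colours for plusFoxp3, minusFoxp3 and GFP Treg. Itgae in resting plusFoxp3 cells goes from 11.9 and 14.8 CPM at day 3 to 77.5 and 58.9 CPM at day 28, with the minusFoxp3 libraries at 0.562 to 5.00 CPM over all days and GFP Treg cells at 199 and 231 CPM.

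Active GFP Treg cells differed from active untreated minusFoxp3 cells in 13 of 34 members, 7 higher and 6 lower. Over all genes 5.21% were higher and 4.79% lower (10% called in all). Over the members the median was -0.13, beside 0.0043 over all genes. Itgae was 54.9 and 56.9 CPM in minusFoxp3 and 521 and 724 CPM in GFP Treg cells (3.50 ± 0.29, adjusted p = 6.90e-07). Ccl5 was 2.59 and 2.20 CPM against 33.2 and 40.2 CPM (3.96 ± 0.89, adjusted p = 0.00741). Ccr3 was 0.564 and 2.13 CPM against 7.92 and 16.7 CPM (3.21 ± 0.76, adjusted p = 0.0105). These 3 were also among the higher members in resting GFP Treg cells. Ccr8 was 44.6 and 52.4 CPM against 139 and 107 CPM (1.37 ± 0.29, adjusted p = 0.00524), which is the opposite direction to its difference in plusFoxp3 cells at days 7 and 14.

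Among the integrins and their ligands, Itgb1 was 126 and 183 CPM against 424 and 305 CPM (1.26 ± 0.36, adjusted p = 0.0338). Icam1 was 102 and 112 CPM against 216 and 188 CPM (0.94 ± 0.17, adjusted p = 0.00112). Itga6 was 88.3 and 124 CPM against 189.7 and 209.5 CPM (0.93 ± 0.22, adjusted p = 0.0105). No library of one group overlapped the other in these genes, nor in the other called members. Such separation was also seen in members that were not called. With 2 libraries per group and no share counted over all genes, it says nothing about this list. Itgb3 ran the other way with 58.8 and 81.2 CPM in minusFoxp3 and 9.06 and 9.67 CPM in GFP Treg cells (-2.88 ± 0.35, adjusted p = 3.69e-05).

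Chemokine receptors and other receptors of homing formed the rest of the lower members. Cxcr6 had the largest difference of the 34 genes in this comparison, from 696 and 619.9 CPM in minusFoxp3 to 16.3 and 26.3 CPM in GFP Treg cells (-4.92 ± 0.57, adjusted p = 2.00e-05). Ccr2 was 600.4 and 555 CPM against 103 and 189.6 CPM (-1.96 ± 0.38, adjusted p = 0.00257). It thus lay below minusFoxp3 cells in the active state, whereas in the resting state GFP Treg cells lay above them. Ccr4 was 211 and 203 CPM against 86.1 and 98.1 CPM (-1.14 ± 0.15, adjusted p = 5.86e-05). The colon-homing receptor Gpr15 was 99.9 and 78.7 CPM against 36.1 and 45.7 CPM (-1.10 ± 0.22, adjusted p = 0.00279). Gpr183 was 261 and 192 CPM against 127 and 134 CPM (-0.77 ± 0.20, adjusted p = 0.0170).

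Ccr2, Ccr4, Cxcr6, Gpr15, Itgae, Itgb3 and Icam1 were called whichever library was left out. The count was 7 without minusFoxp3 replicate 1, 11 without minusFoxp3 replicate 2 and 10 without either GFP Treg library. B cell markers summed to 14.2 to 26.4 CPM in minusFoxp3 and 40.0 to 48.4 CPM in GFP Treg cells. The part of those cells in the differences was not tested. Of 56 other trafficking genes 8 were higher and 11 lower. Itgb8 (6.70 ± 0.69, adjusted p = 5.17e-06), Cxcr5 (5.55 ± 0.49, 1.18e-06) and the chemokine Cxcl2 (4.56 ± 1.37, 0.0444) led the higher ones, and Ccl20 (-7.83 ± 0.51, 4.70e-08), the chemokine receptor Ccr1 (-5.31 ± 0.45, 6.98e-07) and the scavenging receptor Ackr3 (-4.36 ± 1.03, 0.0106) the lower ones.

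Against active plusFoxp3 cells of day 28, active GFP Treg cells still differed in 4 of 34 members, 1 higher and 3 lower, with 2.01% of all genes called and a member median of -0.069 beside -0.010 over all genes. Cxcr6 was 689 and 154 CPM in plusFoxp3 and 16.3 and 26.3 CPM in GFP Treg cells (-4.31 ± 0.56, adjusted p = 2.55e-04). Ccr2 was 895 and 579 CPM against 103 and 189.6 CPM (-2.34 ± 0.39, adjusted p = 0.00261). Itgb3 was 36.0 and 21.2 CPM against 9.06 and 9.67 CPM (-1.61 ± 0.34, adjusted p = 0.0174). Only Ccr8 of the called members was higher, with 26.4 and 43.4 CPM against 139 and 107 CPM (1.82 ± 0.30, adjusted p = 0.00224). Cxcr6 kept its call without any single library. The count was 2 without plusFoxp3 replicate 1, 8 without plusFoxp3 replicate 2, 2 without GFP Treg replicate 1 and 3 without GFP Treg replicate 2, and a fit of the 4 libraries alone called 0. B cell markers summed to 24.9 to 37.8 CPM in plusFoxp3 and 39.98 to 48.4 CPM in GFP Treg libraries and endothelial markers to 73.5 to 79.7 and 59.9 to 62.7 CPM, and their part was not tested. Of 56 other trafficking genes 0 were higher and 5 lower, with Ccl20 (-5.52 ± 0.46, adjusted p = 3.84e-06), Ccr1 (-4.003 ± 0.42, 3.67e-05) and the integrin chain Itgb5 (-3.14 ± 0.55, 0.00446) changed most.

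Active and resting cells were then compared with each other. In untreated minusFoxp3 cells 18 of 34 members were called between the states, 13 higher in active cells, against 7.87% of all genes higher, and 5 lower, against 5.57% lower (13.4% in all). The members' median was 0.83, beside -0.029 over all genes. Cd44, at 80.6 and 74.5 CPM in resting and 191 and 215 CPM in active cells, was among the 13, but the sort chose cells on this protein.

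The chemokine receptors had the widest differences. Ccr2 was 2.60 and 4.25 CPM in resting and 600.4 and 555 CPM in active cells (7.39 ± 0.82, adjusted p = 3.34e-07). Cxcr6 was 7.81 and 3.71 CPM against 696 and 619.9 CPM (6.83 ± 0.96, adjusted p = 9.48e-06). Ccr4 was 40.4 and 39.4 CPM against 211 and 203 CPM (2.37 ± 0.34, adjusted p = 1.44e-05). So active cells without Foxp3 protein already held 203 to 211 CPM of Ccr4 and more of Ccr2 and Cxcr6. Ccr8 was 14.5 and 16.8 CPM against 44.6 and 52.4 CPM (1.62 ± 0.33, adjusted p = 7.75e-04). Ccr3 was called on few reads, 0.0206 and 0.0216 CPM against 0.564 and 2.13 CPM, with 2 counts in the resting libraries together and a ratio of 67.0 (95% counting interval 18.2 to 559, adjusted p = 0.00408). Gpr15 was 11.3 and 6.15 CPM against 99.9 and 78.7 CPM (3.36 ± 0.46, adjusted p = 6.94e-06).

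Of the integrins, Itgae was 1.22 and 1.60 CPM in resting and 54.9 and 56.9 CPM in active cells (5.31 ± 0.58, adjusted p = 2.28e-07), and its partner Itgb7 was 946 and 1355 CPM against 1884 and 2043 CPM (0.77 ± 0.20, adjusted p = 0.00775). Itga2 was 1.01 and 0.237 CPM against 4.83 and 3.19 CPM (2.68 ± 0.65, adjusted p = 0.00467). Both integrin chains Itgal (314 and 425 against 614 and 795 CPM, 0.93 ± 0.25, adjusted p = 0.0115) and Itgav (31.8 and 40.4 against 54.4 and 79.5 CPM, 0.89 ± 0.28, 0.0310) were also higher in active cells. So was Icam1, with 33.5 and 46.2 CPM against 102 and 112 CPM (1.42 ± 0.20, adjusted p = 9.32e-06).

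The lower members were the lymph node genes Ccr7 (1219 and 1143 against 279 and 358 CPM, -1.89 ± 0.26, adjusted p = 5.83e-06) and S1pr1 (921 and 918 against 340.5 and 336 CPM, -1.45 ± 0.25, 1.28e-04), with Klf3, Itga6 and Icam2. Klf3, a Krüppel-like repressor, was 327 and 322 CPM against 194 and 134 CPM (-0.99 ± 0.20, adjusted p = 8.00e-04). Itga6 was 213 and 245 CPM against 88.3 and 124 CPM (-1.11 ± 0.21, adjusted p = 4.88e-04). Icam2 was 146 and 119.8 CPM against 97.9 and 74.2 CPM (-0.63 ± 0.16, adjusted p = 0.00584).

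Between 13 and 18 members were called when any 1 of these 4 libraries was left out. The calls of Ccr3, Itgal, Itgav, Itgb7 and Icam2 were lost without active replicate 2 (13 called) or resting replicate 1 (14 called), and that of Itga2 without resting replicate 2 (17 called). A fit of the 4 libraries alone called 12 and ended the calls of Klf3, Itga6, Itga2, Itgal, Itgav, Itgb7 and Icam2. CD8 T and NK cell markers summed to 27.5 to 35.4 CPM in resting and 16.2 to 24.9 CPM in active libraries, and their part in the differences was not tested. From 55 other trafficking genes tested, 15 were higher and 11 lower in active cells. Ccr1 (8.34 ± 1.12, adjusted p = 5.24e-06) and Itgb5 (6.03 ± 0.97, 5.45e-05) were among the higher ones, and Itga9 (-4.15 ± 0.76, 3.06e-04) and Itgb8 (-3.31 ± 0.54, 6.81e-05) among the lower ones.

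In GFP Treg cells 11 of 34 members were called between active and resting cells. These were 6 higher in active cells, against 1.81% of all genes, and 5 lower, against 1.31% (3.12% in all), with a median of 0.50 beside 0.00095 over all genes. Cxcr6 was 0.402 and 2.98 CPM in resting and 16.3 and 26.3 CPM in active GFP Treg cells (3.65 ± 0.86, adjusted p = 0.0157). Ccr8 was 43.3 and 27.6 CPM against 139 and 107 CPM (1.77 ± 0.32, adjusted p = 0.00194), and Itgav was 40.8 and 40.1 CPM against 107 and 83.1 CPM (1.22 ± 0.28, adjusted p = 0.0124). The levels of Cxcr6 in active GFP Treg cells nonetheless stayed far under those of active minusFoxp3 cells. Gpr183 (73.9 and 61.2 against 127 and 134 CPM, 0.93 ± 0.23, adjusted p = 0.0211), Itgal (328 and 296 against 681 and 512 CPM, 0.91 ± 0.25, 0.0403) and Icam1 (135 and 112 against 216 and 188 CPM, 0.69 ± 0.20, 0.0487) were the other higher members. Itgae did not pass (199 and 231 against 521 and 724 CPM, 1.51 ± 0.47, adjusted p = 0.0752), and neither did Ccr2 (1.00 ± 0.62, 0.494).

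The lower members were led by genes of the lymph node circuit. Klf2 was 922 and 1106 CPM in resting and 256 and 333 CPM in active GFP Treg cells (-1.80 ± 0.36, adjusted p = 0.00439). S1pr1 was 553 and 587 CPM against 181 and 178 CPM (-1.69 ± 0.25, adjusted p = 2.12e-04), and Ccr7 was 638 and 625 CPM against 237 and 246 CPM (-1.41 ± 0.25, adjusted p = 0.00167). S1pr4, a related lipid receptor, was 77.9 and 84.0 CPM against 46.4 and 51.8 CPM (-0.74 ± 0.21, adjusted p = 0.0475). Itgb3 was 20.7 and 36.2 CPM against 9.06 and 9.67 CPM (-1.62 ± 0.32, adjusted p = 0.00351). Ccr7 and S1pr1 kept their calls without any single library. The count was 5 without resting replicate 1, 3 without resting replicate 2, 3 without active replicate 1 and 7 without active replicate 2. CD8 T and NK cell markers summed to 25.7 to 26.95 CPM in resting and 15.4 to 20.1 CPM in active GFP Treg libraries and endothelial markers to 124 to 139 and 59.9 to 62.7 CPM, and their part was not tested. Of 55 other trafficking genes 3 were higher, Cxcl3 (3.90 ± 0.98, adjusted p = 0.0239), Gpr55 (2.39 ± 0.47, 0.00353) and S1pr2 (1.00 ± 0.25, 0.0237), and 2 were lower, among them Rasgrp2 (-1.43 ± 0.25, 0.00159).

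Whether the day 28 difference between plusFoxp3 and minusFoxp3 cells itself differed between active and resting cells was tested as an interaction. By edgeR 0 of 34 members passed, with 0.0818% of all genes called, 5 members at an unadjusted p under 0.05 (5.58% of all genes) and 1 by DESeq2 (Ccr2). Ccr2 had the lowest p (-3.56 ± 0.91, active minus resting, adjusted p = 0.210), followed by Itga1 (2.18 ± 0.70, 0.484) and Itgae (-1.93 ± 0.67, 0.564). The member median was -0.15 beside 0.0081 over all genes. Without active plusFoxp3 replicate 2 there was 1 call. Of 55 other trafficking genes 1 passed, Itgb8 (3.50 ± 0.71, adjusted p = 0.0432).

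After 7 days of 5-ph-IAA, adult TIR1 and WT mice were compared to see how loss of Foxp3 protein bears on these genes, and edgeR called no member. The study, which used DESeq2, reported genes changed by degradation, most of them in thymic and fewest in activated Treg cells. As edgeR called 0% of all genes here, the lack of called members does not show that these genes were unaffected. The share of all genes called by DESeq2 is not given here. In thymic Treg cells 28 members had enough reads, and 0 were called by edgeR, with 0% of 14245 genes. The 6 untested members were Ccr3, Ccr10, Ccl3, Gpr15, Itga1 and Itga2. At an unadjusted p under 0.05 there were 5 members, against 7.37% of all genes. The lowest p-values belonged to Gpr183, with 105, 90.4 and 99.2 CPM in WT and 67.0, 71.3 and 71.9 CPM in TIR1 (-0.49 ± 0.11, adjusted p = 0.470), Itgb7, with 881, 918 and 912 and 811, 789.9 and 742 CPM (-0.21 ± 0.053, 0.479), and Klf2, with 1426, 1542 and 1500.4 and 1310.0, 1251 and 1354 CPM (-0.19 ± 0.054, 0.532). These 3 genes did not overlap between the genotypes, and they were the 3 that DESeq2 called. The member median was -0.085 beside -0.0022 over all genes.

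In active Treg cells 31 members were tested (not Cx3cr1, Ccl3 and Itga1) and 0 were called by edgeR, with 0% of 14554 genes, 5 members at an unadjusted p under 0.05 (4.62% of all genes) and 0 by DESeq2. Itgae was 72.2, 147 and 147 CPM in WT and 78.8, 59.6 and 59.7 CPM in TIR1 cells (-0.92 ± 0.28, adjusted p = 1.000). Ccr7 was 475, 507 and 443 CPM against 567, 763 and 663 CPM (0.45 ± 0.14, adjusted p = 1.000), with all TIR1 libraries above all WT libraries. Ccr2 was 470.1, 718 and 712 CPM against 480.4, 369 and 481 CPM (-0.54 ± 0.19, adjusted p = 1.000). In Itgae and Ccr2, WT replicate 1 lay within the TIR1 range and apart from the other WT libraries. Here the member median was -0.057 beside -0.0091 over all genes. Of the other trafficking genes 0 passed at either site. Had the tables been grouped by the sample they are attached to, the sign of each of these differences would be turned.

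The difference between the thymic and the active degron effect was tested over all 12 libraries, a test added after the data had been seen. Of 32 members 0 were called by edgeR, with 0% of 14769 genes, 5 at an unadjusted p under 0.05 (6.66% of all genes) and 0 by DESeq2. The lowest p-values were those of Itga2 (-6.33 ± 1.42, adjusted p = 0.569), Gpr183 (-0.58 ± 0.17, 0.684) and Ccr7 (-0.45 ± 0.14, 0.684), as thymus minus active, and the member median was 0.012 beside 0.0073 over all genes. Itga2 was at 0 in all thymic TIR1 libraries and at 0.106, 0.401 and 0.586 CPM in the WT ones, so its fitted value depends on few reads.

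The thymic and active Treg cells of the degron experiment were also compared with each other within the WT genotype. Between thymic and active WT cells 21 of 32 tested members were called, 4 higher in the thymus, against 9.22% of 14769 genes, and 17 lower, against 13.8% (23% in all). Their median was -0.72, also with genes at 0 placed at their bound, beside -0.035 over all genes. The groups differ in organ and in the surface gate (CD73-negative against CD44hi), which cannot be told apart. Cd44, 56.9, 54.1 and 83.0 CPM in thymic and 179, 189 and 164 CPM in active cells, bears on that gate.

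All 4 members higher in the thymus belong to lymphoid recirculation or its transcription factors. Ccr7 was 2188, 2369 and 2199.9 CPM in thymic and 475, 507 and 443 CPM in active cells (2.15 ± 0.11, adjusted p = 6.89e-08). S1pr1 was 1316, 1448 and 1379 CPM against 357, 420.0 and 396 CPM (1.73 ± 0.085, adjusted p = 6.75e-08). Klf2 was 1426, 1542 and 1500.4 CPM against 617, 728 and 622 CPM (1.09 ± 0.097, adjusted p = 6.29e-06). Their 3 thymic libraries lay within a narrow range above all active libraries. Klf3 was 397, 301 and 399.9 CPM against 209, 185 and 255 CPM (0.66 ± 0.15, adjusted p = 0.00560).

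Most tissue receptors had few or no reads in thymic Treg cells. Gpr15, Ccr10 and Ccr3 had 0 reads in all 3 thymic WT libraries and were 48.3, 102 and 109, 13.8, 8.24 and 6.65 and 10.1, 4.58 and 7.58 CPM in the active ones. With a floor of 3 counts per thymic library this makes them at least 836-fold, 92.7-fold and 71.8-fold lower in the thymus (adjusted p = 6.46e-06, 3.41e-05 and 1.81e-04). Ccr2 was 0, 0 and 1.96 CPM in thymic and 470.1, 718 and 712 CPM in active cells (-10.00 ± 1.06, adjusted p = 2.71e-05). Cxcr6 was 0.887, 1.34 and 0.723 CPM against 684, 791 and 729 CPM (-9.63 ± 0.71, adjusted p = 1.32e-06), and Ccr4 was 0.957, 0.535 and 3.13 CPM against 161, 154 and 169 CPM (-6.80 ± 0.60, adjusted p = 6.03e-06). Ccr8 was the exception among the tissue receptors of this list, with 127, 148 and 146 CPM in the thymus and 107, 124 and 121 CPM in active cells, and did not pass (0.17 ± 0.11, adjusted p = 0.347). Gpr183 was 105, 90.4 and 99.2 CPM against 417, 429.8 and 336 CPM (-2.10 ± 0.12, adjusted p = 2.61e-07). Ccl5 was 1.21, 0.535 and 0.586 CPM against 27.4, 17.2 and 5.76 CPM (-4.53 ± 0.57, adjusted p = 1.13e-04).

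The called integrin chains were lower in the thymus, most of all Itgae and Itga2. Itgae was 0, 2.54 and 0 CPM in thymic and 72.2, 147 and 147 CPM in active cells (-7.23 ± 1.14, adjusted p = 5.94e-04). Its partner Itgb7 was 881, 918 and 912 CPM against 1185, 2050.5 and 1939 CPM (-1.02 ± 0.17, adjusted p = 9.16e-04). Thymic cells thus held the beta chain at 881 to 918 CPM beside 0 to 2.54 CPM of the alpha chain. Itga2 was 0.106, 0.401 and 0.586 CPM against 4.04, 3.36 and 5.54 CPM (-3.64 ± 0.86, adjusted p = 0.0116). Its partner Itgb1 was 116, 98.5 and 108 CPM against 312, 318 and 306 CPM (-1.63 ± 0.11, adjusted p = 7.45e-07). Itgav was 25.1, 23.4 and 26.4 CPM against 63.0, 47.0 and 80.1 CPM (-1.44 ± 0.28, adjusted p = 0.00279), and Itga4 was 101, 108 and 90.0 CPM against 195, 155 and 236 CPM (-1.06 ± 0.15, adjusted p = 2.88e-04). The thymic libraries lay under all active libraries in each chain.

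Among the remaining lower members, Cd44 differed by -1.55 ± 0.19 (adjusted p = 9.78e-05). The P-selectin ligand Selplg was 1338, 1405 and 1346 CPM in thymic and 1471, 2012 and 1651 CPM in active cells (-0.42 ± 0.10, adjusted p = 0.00982), and Icam1 was 48.2, 52.1 and 72.4 CPM against 82.9, 136 and 115 CPM (-1.04 ± 0.26, adjusted p = 0.0127). Icam1 lost its call without active replicate 2, thymic replicate 1 or thymic replicate 2, where 20 members were called each time. The other 20 members kept theirs without any single library. Selplg lost its call in a fit of the 6 libraries alone and, with Icam1, when tables were grouped by attachment. DESeq2 gave no p for Ccr2 and Itgae.

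Of 42 other trafficking genes 7 were higher and 19 lower in the thymus, and the lower ones included all 8 tested genes of the list of other chemokine receptors. Itga9 (5.39 ± 1.02, adjusted p = 0.00224) and Rasgrp2 (1.71 ± 0.15, 4.64e-06) were among the higher ones. Ccl20, Cxcr3 and Ccr1 had 0 reads in every thymic WT library and were at least 3464-fold, 1750.2-fold and 1272-fold lower there. The 5 thymocyte markers summed to 50.9 to 59.0 CPM in thymic WT and 11.1 to 15.3 CPM in active WT libraries, while Rag1 and Rag2 were at 0 in all of these libraries. CD8 T and NK cell markers, which share 1 gene with that list, summed to 54.1 to 63.2 CPM in thymic and 17.8 to 21.9 CPM in active libraries. B cell markers summed to 11.02 to 21.1 and 31.3 to 57.8 CPM and myeloid markers to 4.15 to 8.30 and 8.42 to 16.1 CPM. Endothelial markers summed to 144 to 170.5 and 56.8 to 105.7 CPM. Of these 4 endothelial genes, Cdh5, Kdr and Tek were at 0 in every thymic WT library, so the thymic sum is Pecam1 alone. In active WT libraries only Cdh5 was at 0 throughout. The part of these cell types in the differences was not tested.

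**Figure D3:**
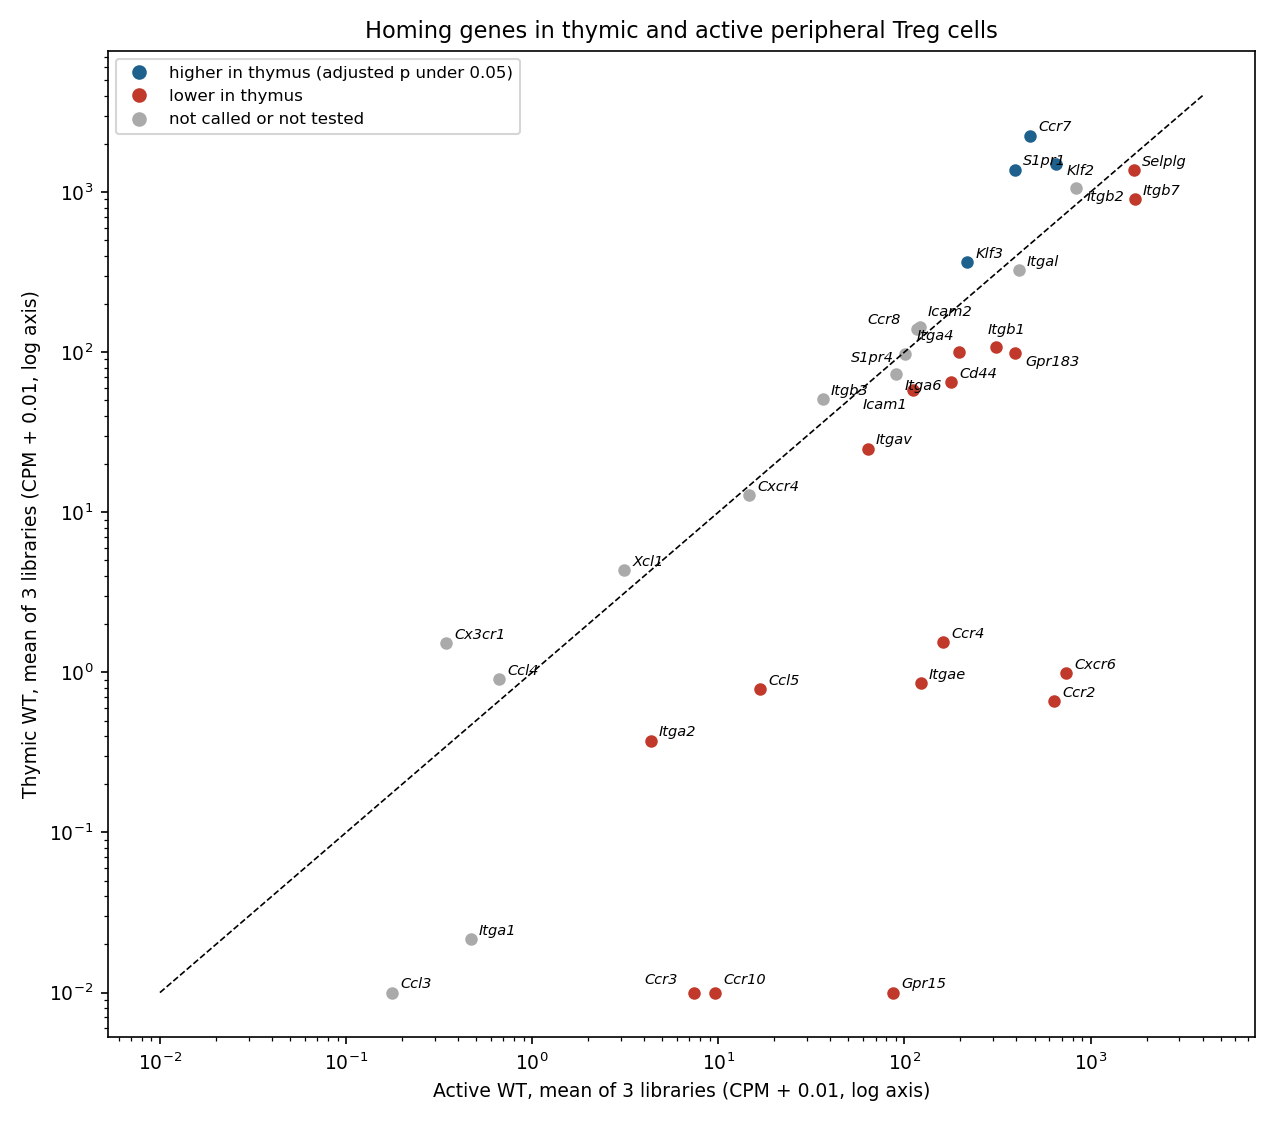
Each point is 1 of the 34 genes, with mean CPM plus 0.01 in active WT cells on one log axis and in thymic WT cells on the other (3 libraries each), coloured by call, and the diagonal marks equal levels. Ccr7, S1pr1, Klf2 and Klf3 lie on the thymic side, whereas Gpr15, Ccr10 and Ccr3 lie at the thymic minimum because no read was counted there.

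In infant Treg cells 32 members were tested (not Ccl3 and Ccl4) and 0 were called by edgeR, with 0.0185% of 16209 genes, 12 members at an unadjusted p under 0.05 (17.4% of all genes) and 4 by DESeq2 (Itga4, Cxcr6, Ccr2 and Ccr7). Cxcr6 was 7.40, 10.3, 11.8 and 21.8 CPM in the libraries titled WT and 37.0, 39.5, 31.2 and 43.5 CPM in those titled TIR1 (1.58 ± 0.29, adjusted p = 0.0726). Itga4 was 195, 231, 246 and 168 CPM against 144, 163, 142 and 128 CPM (-0.52 ± 0.12, adjusted p = 0.0941). Ccr2 was 21.99, 20.2, 13.4 and 39.6 CPM against 47.7, 63.9, 39.0 and 49.8 CPM (1.09 ± 0.30, adjusted p = 0.125). In each of these genes titled WT replicate 4, the last value given for its group, was the WT library nearest to the TIR1 libraries, and its Ccr2 exceeded the lowest of them. The member median was 0.11 beside -0.0052 over all genes, and 0 of the other trafficking genes passed.

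Without titled WT replicate 4, 12 of 32 members were called, 8 higher and 4 lower in the libraries titled TIR1, against 11% of 16136 genes. This fit is described because that library's own values, those of Itgae, Gpr183 and Itgav among them, stood apart. The p-values without it were thus obtained after seeing these values and are descriptive, not a test. Their median was 0.093, beside -0.00085 over all genes. Itgae, 27.5, 26.5, 20.7 and 103 CPM in titled WT and 141, 128, 99.6 and 117 CPM in titled TIR1, then had the lowest p (2.31 ± 0.14, adjusted p = 2.59e-06). Cxcr6 (1.96 ± 0.18, adjusted p = 4.78e-05), Ccr2 (1.45 ± 0.19, 4.88e-04) and Gpr183 (0.77 ± 0.10, 5.70e-04) were higher as well. Gpr183 was 84.8, 81.2, 83.4 and 185 CPM in titled WT and 138, 164, 139.6 and 116 CPM in titled TIR1, so that replicate 4 was above every other infant library. Itgb1 was 535, 422, 456 and 908 CPM against 1009, 1342, 571 and 869 CPM (1.03 ± 0.23, adjusted p = 0.0188), and Itga2 was 2.98, 3.80, 3.73 and 6.97 CPM against 5.40, 7.61, 6.07 and 7.47 CPM (0.94 ± 0.20, adjusted p = 0.0108). Icam1 was 63.3, 54.0, 53.3 and 78.5 CPM against 82.7, 84.8, 80.8 and 70.1 CPM (0.51 ± 0.095, adjusted p = 0.00466), and Ccr7 was 851, 893, 749 and 899 CPM against 1107, 870.2, 1038 and 1214 CPM (0.37 ± 0.11, adjusted p = 0.0487). Titled WT replicate 4 had the highest value of its group in all 4 of these genes.

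The 4 lower members without that library were Itga4 (-0.62 ± 0.099, adjusted p = 0.00191), Klf3 (349, 408, 408 and 298 against 277, 279, 324 and 263 CPM, -0.42 ± 0.090, 0.0102), Itgav (83.2, 84.3, 81.2 and 59.2 against 63.0, 70.2, 61.9 and 57.1 CPM, -0.38 ± 0.084, 0.0129) and the chemokine Xcl1 (-3.65 ± 0.72, 0.00649). Xcl1, which attracts cross-presenting dendritic cells, was only 0.678, 1.15, 0.665 and 0.0538 CPM in titled WT and 0.0297, 0.152, 0.0621 and 0 CPM in titled TIR1. With any other infant library left out 0 members were called. Whether the title or the genotype field is right decides the sign of all these values. Of 44 other trafficking genes 9 were higher and 6 lower without that library, among them Ccr1 (5.34 ± 0.78, adjusted p = 9.38e-04) and the selectin ligand enzyme Gcnt1 (3.13 ± 0.22, 7.49e-06) of the higher, and Itgb8 (-1.90 ± 0.22, 2.08e-04), Itga9 (-1.19 ± 0.18, 0.00131) and Gpr174 (-0.63 ± 0.14, 0.0144) of the lower.

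**Figure D4:**
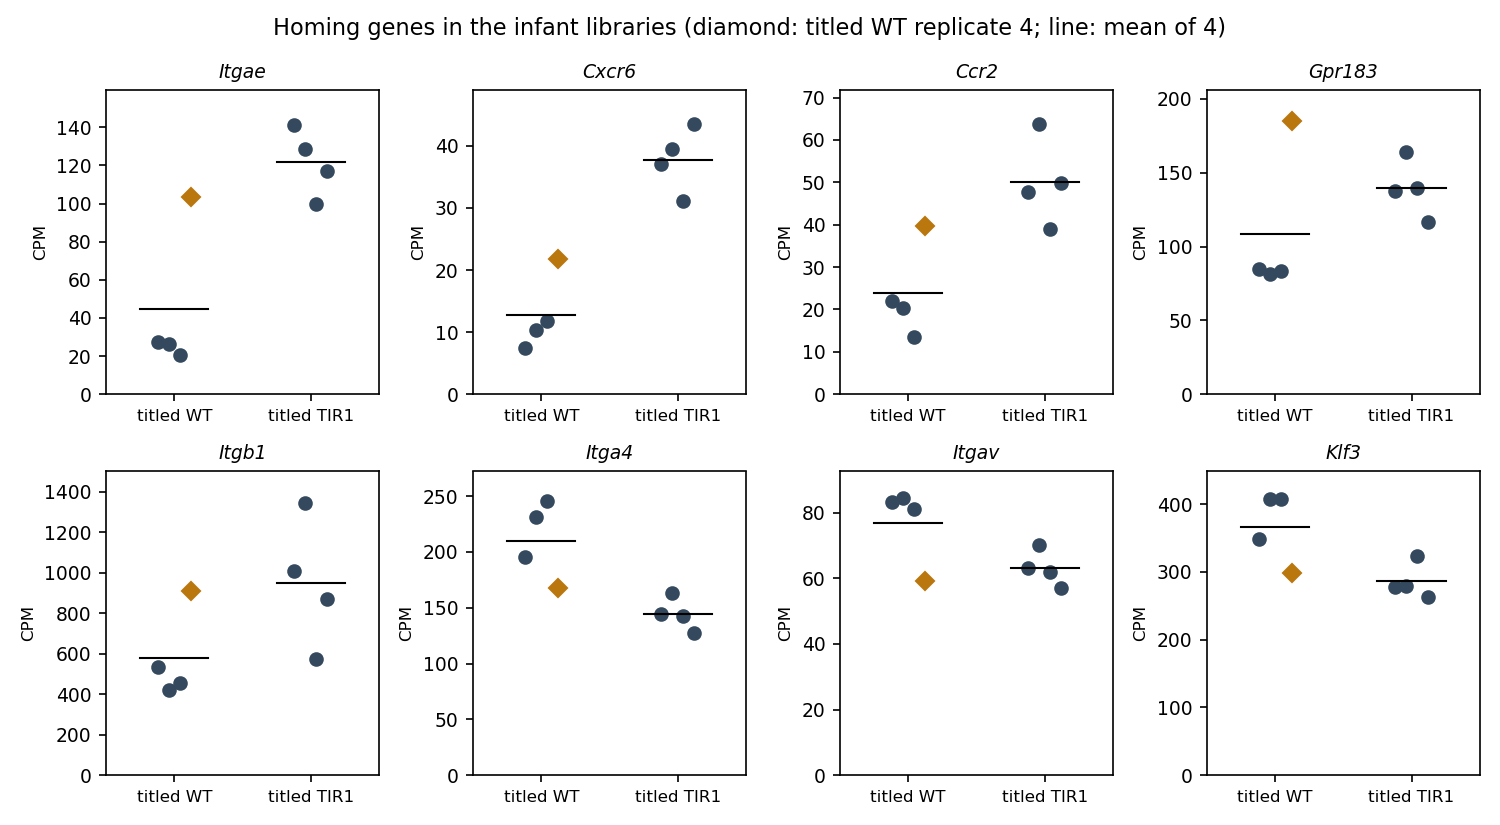
Points give the CPM of 8 genes (panels) in each of the 8 infant libraries, by title (x axis), with a diamond for titled WT replicate 4. The diamond for Itgae, at 103 CPM, lies near the titled TIR1 libraries (141, 128, 99.6 and 117 CPM) and far above the other titled WT libraries (27.5, 26.5 and 20.7 CPM).

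Over the 22 comparisons 27 of the 34 members (79.4%) were called at least once, 11 of them (32.4% of the 34) in a comparison of plusFoxp3 with minusFoxp3 cells. Of all genes tested in any of these comparisons, 25.4% were called at least once, and 2.82% in a comparison of plusFoxp3 with minusFoxp3 cells. Because the list was chosen with earlier results of these data known, setting its shares beside those of all genes is no test. Itgae was called in 10 comparisons, and Ccr2 and Icam1 in 7 each. The 7 members called in none of them, with all libraries kept, were Cxcr4, Cx3cr1, Xcl1, Ccl3, Ccl4, Itga1 and Itgb2. Of these Itgb2, the beta chain shared by the leukocyte integrins, was high throughout, with 605 to 1211 CPM over the 64 libraries. The others were low. Cxcr4, the bone marrow homing receptor, ranged over 4.53 to 28.0 CPM, the fractalkine receptor Cx3cr1 over 0 to 3.31 CPM and Xcl1 over 0 to 10.4 CPM. Ccl3 spanned 0 to 3.83 CPM and Ccl4 0 to 16.1 CPM, with the highest value of both in resting day 28 plusFoxp3 replicate 1. Itga1 spanned 0 to 12.6 CPM, with its highest value in active day 28 plusFoxp3 replicate 1.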

How the data were processed

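Bulk RNA was sequenced from sorted mouse cells in 64 libraries. The values deposited by the authors are raw read-pair counts per gene, made with featureCounts 2.0.3 on mm39 (GRCm39) with GENCODE vM30 names, without strand. Per the file headers, counting in the 20 degron libraries took primary alignments alone, left out chimeric pairs and asked for a mapping quality of 30, which counting in the other 44 did not, so the sets were never compared. The methods name STAR and the submitters' processing notes name Bowtie2 as the aligner. DESeq2 is listed there too.

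Columns were matched to groups by library name, and 0 value columns were left unused. The members and lists were chosen with earlier results of these data known. Counts were tested with edgeR 4.0.16 in R 4.3.3 (TMM, robust quasi-likelihood), in separate fits of all resting, all active, all resting and active, thymic degron, active degron, all adult degron and infant libraries, with a mean count of at least 10 and Benjamini-Hochberg adjustment over all genes tested (threshold 0.05). SE is the absolute log2 fold change divided by the root of F. Fitting and calls were tried on simulated data for some of the comparisons, and the outcome is not given here. Members called in any comparison are described, with the 3 lowest p-values where none was called, and at most 3 other trafficking genes per direction. Counting intervals (95%, exact) and floors (3 counts per library) cover counting error only. The alternatives tried were DESeq2 1.42.0, RLE in place of TMM scaling, a test without the count minimum, a block by replicate number, a fit of the compared libraries alone, grouping of the adult degron tables by attachment, and leaving out each library. Promoter windows came from a RefSeq table of GRCm38.p6. Missing entries were not used. Results on certain other trafficking genes and on part of the sorting gate are not reported here.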

Additional observations from a re-analysis of the deposited data

Results flagged for a closer look

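In the infant groups of 4 libraries, the values of 4 members had 1 library whose gap to its nearest neighbour filled more of the group's range than Dixon's 95% critical value for 4 samples allows. Titled WT replicate 4 was that library for 3 of them. Its Gpr183 was 185 CPM, above the other titled WT libraries (81.2 to 84.8 CPM), its Itgae was 103 CPM (the others 20.7 to 27.5 CPM), and its Itgav was 59.2 CPM (the others 81.2 to 84.3 CPM). For Cd44 the library apart was titled WT replicate 3, at 51.0 CPM (the others 60.1 to 61.6 CPM). Of 64 groups of 4 values tested, chance alone would be expected to mark about 1 in 20. Each of the 3 values of replicate 4 lay on the side of the libraries titled TIR1, and the reason was not tested.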

How the results depend on the processing

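No call of a single member changed direction under any alternative. Of 100 such calls 41 kept their side of the threshold under every alternative. Scaling by RLE size factors ended 3 calls, DESeq2 ended 0 and gave no p for 2, leaving out the count filter ended 3, fitting only the compared libraries ended 36, and grouping thymic and active WT tables by attachment ended 2 of 21. Members called by DESeq2 numbered 3 (thymic degron), 4 (infant), 2, 5 and 10 (resting days 7, 14 and 28), 2, 4 and 9 (active days 3, 14 and 28), 8 (active GFP Treg against day 28 plusFoxp3) and 1 (interaction at day 28). RLE size factors left 2 at active day 7. With no count filter there were 1, 4, 5, 8 and 14 at resting days 0, 3, 7, 14 and 28, 4, 2, 9, 11 and 12 at active days 0, 3, 7, 14 and 28, 5 and 10 for resting and active GFP Treg against day 28 plusFoxp3, 20 for active GFP Treg against minusFoxp3, 17 for active against resting GFP Treg and 6 for the interaction. A fit of the compared libraries alone gave 2, 1, 1 and 2 at resting days 3, 7, 14 and 28, 7 for resting GFP Treg, 0, 0, 4 and 2 at active days 3, 7, 14 and 28, and 0 for active GFP Treg against day 28 plusFoxp3. Except for the infant set without titled WT replicate 4, the share of all genes called is not given for any alternative or left-out library. These counts therefore do not show whether calls rose or fell among the members more than among all genes. The causes were not tested.

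Leaving out 1 library at a time gave 0 to 0 called members for both adult degron effects, their interaction, resting days 3 and 7, resting GFP Treg against day 28 plusFoxp3 and active day 0. The ranges were 0 to 12 (infant), 20 to 24 (thymic against active WT), 0 to 3, 0 to 1 and 0 to 5 (resting days 0, 14 and 28), 6 to 10 (resting GFP Treg), 0 to 1, 0 to 8, 0 to 1 and 1 to 4 (active days 3, 7, 14 and 28), 7 to 11 and 2 to 8 (active GFP Treg against minusFoxp3 and day 28 plusFoxp3), 13 to 18 and 3 to 7 (active against resting, minusFoxp3 and GFP Treg) and 0 to 1 (interaction at day 28). Where 1 library was left in a group, it was assumed to vary like the other groups. The deviations of same-numbered replicates from their group means had an r of -0.086 to 0.039 over 4 comparisons with 3 or 4 pairs. Over 16 comparisons with 2 pairs, too few to show a pairing, r was -0.12 to 0.22, with the highest values for active against resting minusFoxp3 (0.22) and GFP Treg cells (0.19). Whether equal numbers mark shared animals or processing is not stated. A fit with the replicate block ended no call and gave 7 members at resting day 28, 14 for resting GFP Treg, 3 at active day 14, 6 for active GFP Treg against day 28 plusFoxp3, 19 for active against resting minusFoxp3 and 16 for active against resting GFP Treg. The test of the degron effect between sites was chosen after seeing the data. Some calls rest on few reads, such as that of Ccr3 in resting GFP Treg against minusFoxp3 cells, with 2 counts in the lower group.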
